A study of Mus musculus with 16 samples.

Results

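SETD5 carries a SET domain, and in 3T3-L1 preadipocytes, a mouse fibroblast line that turns into adipocytes when induced, it was mapped together with histone marks by ChIP-seq. The 1351 regions described here were islands of the tagged protein, SETD5-V5, that were centred on promoters 6 h after induction. An island is a stretch of the genome that the SICER software lists as holding more ChIP reads than its background. A promoter island was an island of replicate A at 6 h that was shorter than 20000 bp, overlapped an island of replicate B by at least 1 bp, and had its midpoint between 1000 bp upstream and 100 bp downstream of an annotated transcript start in mm9. Replicate A listed 35573 islands at 6 h and replicate B 27220. Of the islands of replicate A, 22677 (63.7%) overlapped replicate B and 21752 of these were shorter than 20000 bp. The 1351 promoter islands were 6.21% of those 21752, and the other 20401 ("islands elsewhere") were the set they were read against. Of the 21752, 5330 overlapped a promoter at any point. Islands elsewhere therefore include many that touch a promoter away from their midpoint. The regions were chosen by the SETD5-V5 islands measured at 6 h, so their values in those lists are a description. All other lists were independent of the rule.

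The series held 16 libraries from 1 stable cell line per vector. H3K27ac was mapped in cells carrying empty retrovirus and in cells carrying SETD5-V5 retrovirus ("SETD5 cells"), on Day 0 (0 h) and Day 2 (48 h) of differentiation, with replicates A and B each. SETD5-V5 was mapped with a V5 antibody at 0 h and 6 h, with replicates A and B, and endogenous SETD5 with its own antibody (IgG-F2104) in 1 library at 0 h and 1 at 6 h. H3K4me1 was mapped in 1 library on Day 0 and 1 on Day 2. All cells were 3T3-L1, differentiation was induced with insulin, dexamethasone and IBMX, and SETD5-V5 was expressed from a weak retroviral promoter. The study calls its level moderate, by Setd5 mRNA compared with empty-vector cells. The virus field read "-" for SETD5-V5 replicate A, although its title names SETD5-V5, and SETD-V5 for H3K4me1, although the study's text names only 3T3-L1 preadipocytes for it. P-values measure the spread between these libraries, which came from the same lines.

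The lists give scores and no reads, so the reads behind an island are unknown. The study states the total reads of each library, by which the H3K27ac libraries of SETD5 cells were all deeper than those of empty-vector cells, and these totals were not used in the values here. The H3K27ac lists held 31292 to 35460 islands in empty-vector cells and 36604 to 39949 in SETD5 cells, the SETD5-V5 lists at 0 h 16054 (A) and 6666 (B), the H3K4me1 lists 50276 and 49926, and the endogenous SETD5 lists 2132 at 0 h and 3293 at 6 h. Of 11 preadipocyte marker genes, 10 had H3K27ac over a promoter in all 8 H3K27ac lists, Cd34 in 1 list, and 0 of 14 markers of other cell types had it in any list. Of the 23 merged exons of Setd5 itself, 1 or 2 held an H3K27ac island in each empty-vector list and 14 to 17 in each SETD5-cell list, and the SETD5-V5 lists had an island on 18 to 23. In the H3K4me1 lists 1 to 3 exons held an island, with 0 of the last 8 exons, against 3 to 6 of the last 8 in SETD5-cell H3K27ac. That check was chosen after the values were seen.

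A promoter is the stretch of DNA at which RNA polymerase II is loaded, and active promoters carry H3K27ac on the nucleosomes that flank the start. H3K4me1 marks enhancers and primed regions and is usually low at the start of an active gene, where H3K4me3 takes its place. In differentiating preadipocytes, promoters of genes for lipid synthesis and insulin response gain acetylation while those of precursor genes lose it. SETD5 has been studied with the NCoR and HDAC3 corepressor, which removes acetyl groups from histones.

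The sequences upstream of 6 of these promoters show the kinds of start site that the results turn on. Fth1 is an example of starts that were occupied throughout, Adipor2 of starts acetylated on induction, and Acsl1 and Dusp22 of starts with shorter H3K27ac in SETD5 cells. Ogn is an example of a start with shorter H3K27ac at 48 h, and Pla1a of H3K27ac found only in SETD5 cells at 48 h. The letters of an example need not be those of its kind. Each is the 200 bases before the transcript start nearest to the island's midpoint, 5′ to 3′ on the strand of the gene, from the mm9 reference. Capitals mark exact matches on either strand to the motif letters searched, which were TGACTCA (AP-1), TGACGTCA (CRE), TTGCNNAA (C/EBP), GGAATG (TEAD), CCAAT (NFY), GGGCGG (SP1), CCGGAAG (ETS), CACGTG (E-box) and the TATA box letters TATAAA.
Fth1, chr19:10056993-10057192, + strand: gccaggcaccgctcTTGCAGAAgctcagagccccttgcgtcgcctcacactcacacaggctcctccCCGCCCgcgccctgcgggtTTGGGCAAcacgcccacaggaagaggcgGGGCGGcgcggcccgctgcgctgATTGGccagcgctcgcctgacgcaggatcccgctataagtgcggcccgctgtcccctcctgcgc
Adipor2, chr6:119367502-119367701, - strand: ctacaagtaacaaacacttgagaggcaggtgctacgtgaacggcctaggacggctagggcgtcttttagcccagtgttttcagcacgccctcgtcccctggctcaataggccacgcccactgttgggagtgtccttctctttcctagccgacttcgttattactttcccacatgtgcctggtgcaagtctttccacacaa
Acsl1, chr8:47556195-47556394, + strand: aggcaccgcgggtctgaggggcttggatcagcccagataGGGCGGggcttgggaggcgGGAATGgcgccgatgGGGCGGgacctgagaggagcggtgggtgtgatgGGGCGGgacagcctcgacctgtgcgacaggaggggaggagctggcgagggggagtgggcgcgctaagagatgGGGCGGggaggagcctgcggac
Dusp22, chr13:30751668-30751867, + strand: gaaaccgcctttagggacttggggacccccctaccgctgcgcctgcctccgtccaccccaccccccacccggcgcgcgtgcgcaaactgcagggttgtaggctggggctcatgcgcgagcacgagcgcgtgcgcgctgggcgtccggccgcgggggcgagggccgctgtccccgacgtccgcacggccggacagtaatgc
Ogn, chr13:49703240-49703439, + strand: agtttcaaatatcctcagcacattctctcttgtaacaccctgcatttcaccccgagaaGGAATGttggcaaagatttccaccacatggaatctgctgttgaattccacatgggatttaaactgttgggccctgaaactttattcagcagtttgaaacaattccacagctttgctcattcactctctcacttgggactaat
Pla1a, chr16:38433226-38433425, - strand: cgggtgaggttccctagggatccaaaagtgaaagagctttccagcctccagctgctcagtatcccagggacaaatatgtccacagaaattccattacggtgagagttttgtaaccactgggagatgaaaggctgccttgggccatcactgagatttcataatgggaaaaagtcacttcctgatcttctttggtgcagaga
All of these windows lay between genes except that of Ogn, which lay in an intron. Fth1, Acsl1 and Dusp22 held 21, 16 and 27 CpG dinucleotides, and Adipor2, Pla1a and Ogn 9, 2 and 1. Ifrd1, with the largest gap of shorter H3K27ac in SETD5 cells at 48 h, held 1 in its 200 bases, which are not printed. Fth1 held C/EBP letters at -186 and -115 from the start, SP1 letters at -134 and -87, and NFY letters at -64. Acsl1 held SP1 letters at -161, -127, -94 and -22 and TEAD letters at -142, and Ogn held TEAD letters at -142. No match was found in the windows of Adipor2, Dusp22 and Pla1a. A match is a description of the letters and no more.

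The promoter islands reached 1449 annotated genes, of which 1184 were protein-coding, 78 processed transcripts, 63 lincRNAs, 52 pseudogenes, 32 miRNAs and 22 snoRNAs. Of 22238 protein-coding gene symbols, 5.32% had a promoter island, whereas 5693 had a promoter touched by any reproducible island and 914 by one of 20000 bp or more. Promoters of at least 2 genes lay around the midpoint of 109 islands, and on both strands around 89. In 876 islands (64.8%) the promoter was that of the first start of a gene and in 475 only of later starts. For many genes named below the nearest start was a later one, and their values need not describe the first start. Among them were Pparg, Klf4, Acly, Acaca, Dlk1, Runx1, Cry2, Rps2, Limk1, Lmo7, Snx21, Vps13d, Ltbp1, Nup88 and Cbx7. The islands ran from 400 to 19600 bp with a median of 4800 bp (quartiles 3400 and 7400), close to the 4400 bp (3000 and 7000) of islands elsewhere.

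Genes with known roles in adipogenesis were a small part. Among 20 adipogenic transcription factors, Pparg, the nuclear receptor that drives the adipocyte programme, and Klf4, an early zinc finger factor, had a promoter island, although 14 had a promoter touched by a reproducible island. Of 24 adipocyte function genes 3 did, namely Acly, which makes cytosolic acetyl-CoA, Acaca, which makes malonyl-CoA from it, and Angptl4, a secreted inhibitor of lipoprotein lipase. Of 30 preadipocyte and mesenchymal genes 2 did, namely Dlk1, the preadipocyte factor that restrains differentiation, and Runx1. The immediate-early list gave Ier2 out of 20 genes, while 16 were touched by an island and 7 by one of 20000 bp or more. Of 15 glucocorticoid-responsive genes 0 were included, although 12 were touched, 7 of them by an island too long for the rule. Cyclic AMP-responsive genes gave Nr4a3, an orphan nuclear receptor, and Pde4d, a cyclic AMP phosphodiesterase (2 of 14).

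The remaining lists were as sparse. Setd5 and Ncor1, which encodes the corepressor scaffold, were 2 of 8 genes of the SETD5 and NCoR-HDAC3 list, Paf1 was 1 of 6 genes of the PAF1 elongation complex, and Anapc13 1 of 15 of the anaphase-promoting complex. Cdk6 was 1 of 21 cell cycle genes, Lats2 1 of 13 TEAD and YAP genes, Cry2 1 of 15 clock genes, and Rpl22, Rpl35 and Rps2 were 3 of 56 cytosolic ribosomal protein genes. Of 5 BTG and TOB genes and of 15 genes of other cell types, 0 were included. All 56 ribosomal protein genes had a promoter touched by a reproducible island, so a list with few centred islands was not a list without SETD5-V5. These shares stand beside 5.32% of all protein-coding genes and, with so few genes a list, set no list apart.

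The rule has 3 edges, and the regions on either side of each are given as a description. Islands over Brd2 and Tcf7l2 (19600 bp each) and Sestd1 (19200 bp) were just short enough, whereas those over Cyr61, Tspan4, Psmc5 and Fnbp4 (20200 bp each) were too long. Relative to the start, the midpoint lay at -998 bp at Hspb11, inside the edge, and at -1001 bp at Katnal1, outside it, with score ranks at 6 h in replicate A of 42.5% and 87.1% of that list. On the downstream side Hbp1 and Med30 (100 bp) were inside, at ranks of 69.0% and 28.3%, and Eif3b (101 bp) and Sgk1 (103 bp) outside, at 78.9% and 99.4%.

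The highest-ranking islands at 6 h lay mostly at starts that were occupied at 0 h too. The island at mt-Co3 covered 16200 bp of the mitochondrial genome and had an island in all 16 lists. Fth1, which encodes the ferritin heavy chain, had a 17000 bp island in replicate A and a 15600 bp island in replicate B at 6 h, and islands of 18600 bp (A) and 12600 bp (B) at 0 h. The endogenous lists held islands of 8400 bp at 0 h and 9000 bp at 6 h at the same start. Brd2, a bromodomain protein that binds acetylated histones, had islands of 19600 and 22400 bp at 6 h and of 7600 and 15600 bp in the endogenous lists at 0 h and 6 h. Rarg, a retinoic acid receptor, had the longer islands at 0 h in replicate A (41400 bp against 19000 bp at 6 h) and the shorter at 0 h in replicate B (24400 against 39000 bp). Hnrnph1 and Ddx5, which encode RNA-processing proteins, had islands of 15800 and 18000 bp in replicate A at 6 h. Both had SETD5-V5 at 0 h in both replicates. Rarg and Ddx5 were named because they had an island in all 6 SETD5 lists, so their state at 0 h was fixed by that choice. Snord57, a snoRNA gene also among the highest-ranking, had SETD5-V5 at 0 h in replicate A (8000 bp) and not in replicate B. It had no endogenous island at 0 h.

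Regions with an island in every list need a separate word. They numbered 24, and with mt-Co3 they included Pisd-ps2, Brd2, Fth1, Rarg, Ier2, Hes1, Actg1 and Sox9, but also islands of 400 bp at the pseudogene Gm13532 and at Gm15564. No input list was used here to set them against. Without them the share of promoter islands with H3K27ac at 0 h was 86.7% in place of 86.9%.

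At 0 h, before the inducers were added, most of these promoters already carried H3K27ac. In empty-vector cells 87.0% (A) and 86.8% (B) of the promoter islands overlapped an H3K27ac island, against 59.2% and 58.8% of islands elsewhere (mean ± SD, n = 2, 86.9% ± 0.105 and 59.0% ± 0.336). The share was higher at promoter islands in 8 of 8 H3K27ac lists, by 21.3 to 28.1 percentage points (25.9 ± 2.58, SD over 8 lists, exact paired permutation test over lists, two-sided, p = 0.0078). That test was chosen after the values were seen, and all 8 lists were scored on the same regions. Because active promoters carry H3K27ac, the test cannot tell these islands from promoters in general. Among all protein-coding starts 44.8% (A) and 43.6% (B) had empty-vector H3K27ac over the promoter at 0 h. For the protein-coding starts in promoter islands the shares were 89.5% and 88.8%. Since longer islands are overlapped more often, the shares were also taken within 5 length classes, and in all 8 lists promoter islands had the higher share in 5 of 5 classes. For islands of up to 2000 bp the empty-vector shares at 0 h were 77.3% and 80.7% at promoters against 39.9% and 41.6% elsewhere.

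H3K4me1 did not separate the regions in this way. It overlapped 63.7% of the promoter islands at 0 h and 63.2% at 48 h, against 64.7% and 64.5% elsewhere (1 library a time, no test). Within the length classes promoter islands had the higher share in only 1 of 5 at each time. At 0 h it was 50.1% against 53.9% elsewhere for islands over 2000 and up to 4000 bp. Combined with H3K27ac at 0 h, 769 promoter islands (56.9%, against 45.9% elsewhere) had H3K27ac in both empty-vector replicates and H3K4me1, and 389 (28.8% against 9.94%) had H3K27ac without H3K4me1. Another 67 (4.96% against 14.6%) had H3K4me1 and no H3K27ac, and 94 (6.96% against 23.3%) had neither. Aligned on the start, H3K4me1 at 0 h covered 25.2% of the starts themselves, 30.8% of positions 1000 bp upstream and 33.5% of positions 1000 bp downstream, so it dipped where H3K27ac peaked. H3K27ac covered 75.8% to 81.6% at its highest position in the 8 lists, which was the start or 200 bp upstream of it.

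**Figure D1:**
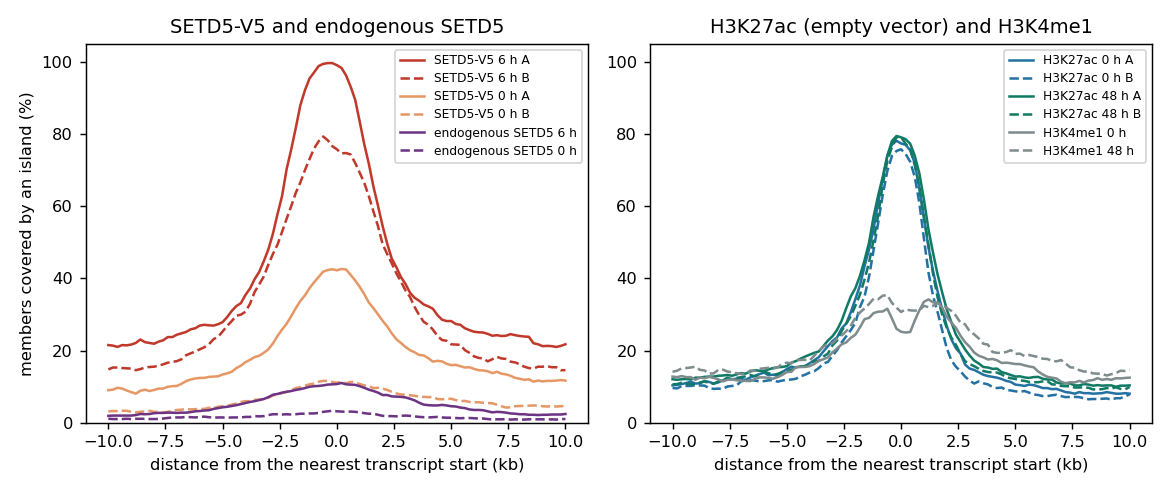
Share of the 1351 promoter islands (%) with an island over each position from 10 kb upstream to 10 kb downstream of the nearest transcript start (x axis, kb), 1 line a library; SETD5-V5 and endogenous SETD5 on the left, empty-vector H3K27ac and H3K4me1 on the right. H3K27ac peaks at the start at 75.8% or more, H3K4me1 at 0 h dips to 25.2% there, and the SETD5-V5 curves at 6 h are high because those lists chose the regions.

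SETD5-V5 at 0 h was present at a part of the promoters, and the replicates differed. Replicate A had an island at 51.8% of them (38.8% elsewhere) and replicate B at 17.0% (16.8% elsewhere), with a mean of 34.4% ± 24.7 (SD, n = 2). The difference from islands elsewhere appeared in replicate A and not in replicate B, whose list was the shorter by far although the study gives it the larger number of reads. Both replicates had an island at 206 promoter islands (15.2%, 15.0% elsewhere), replicate A alone at 494, replicate B alone at 23 and neither at 628 (46.5%, 59.4% elsewhere). The 206 occupied in both were longer than the 628 occupied in neither, with median lengths at 6 h of 8800 and 3800 bp. They also had H3K4me1 at 0 h more often (85.9% against 50.6%) and H3K27ac in 94.2% against 79.9% of cases in replicate A of empty-vector cells. Length is part of what the overlap measures, and its part in these differences was not tested.

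Endogenous SETD5 overlapped 66 promoter islands at 0 h (4.89%, 95% Wilson interval 3.86 to 6.17, which covers counting error only) and 186 at 6 h (13.8%, 12 to 15.7). Elsewhere the shares were 4.23% and 7.23%. At 6 h the difference was carried by the longer islands. Of promoter islands over 10000 bp 44.4% had endogenous SETD5 against 20.2% elsewhere, and of those over 6000 and up to 10000 bp 18.2% against 7.92%, whereas up to 2000 bp the shares were 10.2% in both sets. There was 1 library a time, so none of these differences has a replicate check. Both times shared 49 promoter islands, 137 had endogenous SETD5 at 6 h only, among them Pparg, Angptl4, Acly, Hnrnph1 and Limk1, and 17 at 0 h only. In all 6 SETD5 lists an island was found at 41 promoter islands (3.03%, 2.77% elsewhere), among them Fth1, Brd2, Ddx5, Rarg and Ier2.

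**Figure D2:**
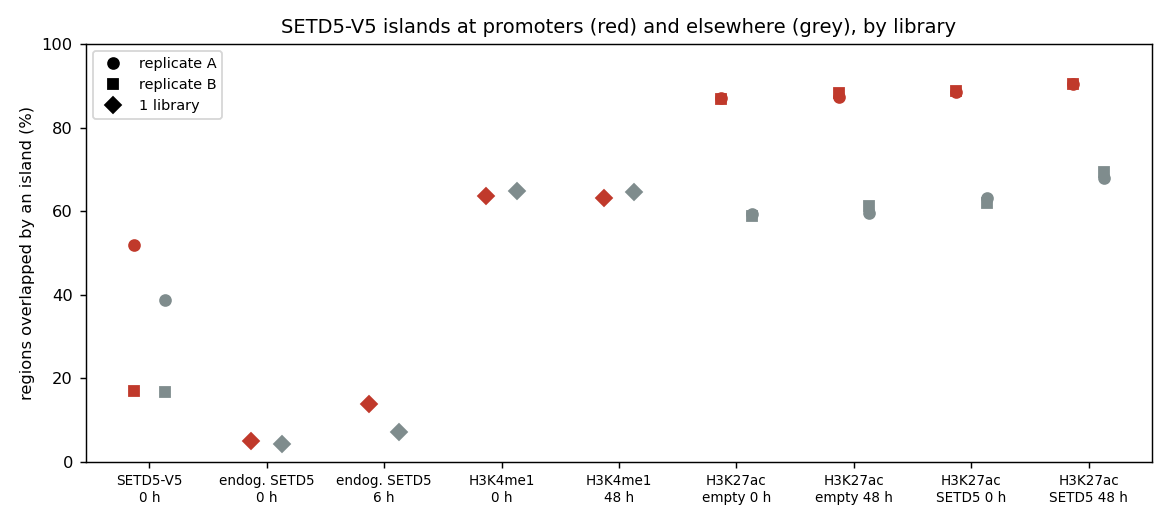
Share of regions overlapped by an island (y axis, %) for each library group (x axis), promoter islands in red and islands elsewhere in grey, circles for replicate A, squares for replicate B and diamonds for a group of 1 library. The red H3K27ac points lie between 86.8% and 90.5% and all grey ones between 58.8% and 69.3%, while the H3K4me1 points nearly coincide.

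From 0 h to 48 h in empty-vector cells the share of promoter islands with H3K27ac went from 86.9% ± 0.105 to 87.8% ± 0.733 (n = 2 each). The difference was 0.888 points, 0.296 within A and 1.48 within B. The exact permutation test over the 4 libraries gave p = 0.333, which is the smallest p that 2 libraries against 2 can give, so no comparison of this kind could pass 0.05. In SETD5 cells the share went from 88.7% ± 0.105 to 90.5% in both replicates, a difference of 1.85 points (1.92 and 1.78). Elsewhere the corresponding differences were 1.36 and 6.05 points. SETD5 cells exceeded empty-vector cells by 1.78 points at 0 h (1.63 and 1.92) and 2.74 points at 48 h (3.26 and 2.22), against 3.54 and 8.24 elsewhere, again with p = 0.333 each (exact permutation test). Where an island counted only if it covered at least 50% of the region, the difference at 48 h turned to -3.07 points and that of SETD5 cells with time to -0.185. The SETD5-cell lists also held more islands, and with every list held to equal numbers the 48 h difference was 0.555 points.

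H3K27ac was therefore read region by region. A region was called gained where both libraries of the second group and neither of the first had an island on it, and lost in the reverse case. It was called longer where H3K27ac islands covered at least 1000 bp more of the 10000 bp around the midpoint in the lower library of the second group than in the higher library of the first, and shorter in the reverse case. The comparisons share libraries, since each group enters more than 1 of them.

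At the promoter islands of empty-vector cells 42 were gained (3.11%, while 8.79% of all 21752 reproducible islands were) and 36 lost (2.66%, against 7.55% of all). Cover was longer at 191 (14.1%, against 18.7%) and shorter at 106 (7.85%, against 15.9%). In SETD5 cells 45 were gained (3.33%, against 9.3%), 24 lost (1.78%, against 4.57%), 161 longer (11.9%, against 18.8%) and 110 shorter (8.14%, against 14%). All of these shares were below those of all reproducible islands. Against all 70064 protein-coding starts, the 2427 in promoter islands had lower shares only of empty-vector gains (1.98% against 2.11%) and SETD5-cell losses (0.700% against 0.821%). The others were higher. With time in empty-vector cells 1.52% were lost (1.15% of all), 13.2% longer (8.43%) and 4.94% shorter (3.36%). In SETD5 cells 2.22% were gained (1.49%), 10.2% longer (5.73%) and 5.69% shorter (3.45%). Those starts often share a promoter and are not independent. Few promoters could be gained, because most had H3K27ac at the outset. Of the 161 promoter islands without H3K27ac at 0 h in empty-vector cells 26.1% were gained, against 24.2% elsewhere, and of the 1158 with it 3.11% were lost, against 14.1% elsewhere. In SETD5 cells 33.6% of 134 were gained (28.4% elsewhere) and 2.04% of 1179 lost (8.03% elsewhere). Among regions of the same starting state the share of losses was lower at promoter islands, and the share of gains was not.

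**Figure D3:**
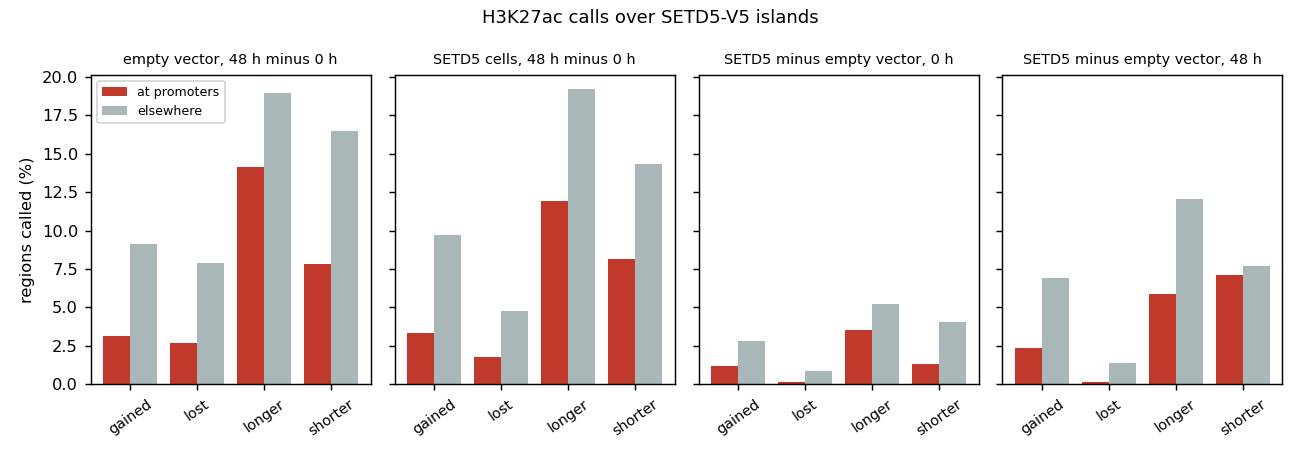
Share of regions called gained, lost, longer or shorter in H3K27ac (y axis, %) in each of the 4 comparisons (panels), promoter islands in red and islands elsewhere in grey. The red bars are the lower in all 16 pairs, and the closest pair is shorter cover in SETD5 cells at 48 h (7.11% and 7.73%).

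Of the promoters that gained H3K27ac or had longer cover with differentiation in empty-vector cells, those with the highest scores or largest gaps are given here. The fixed list of adipocyte function genes had 0 of its 3 members among the longer ones. Adipor2, an adiponectin receptor, had no H3K27ac at 0 h (0 bp in A and B) and a full window at 48 h (10000 bp in both), and in SETD5 cells it went from 0 and 1800 bp to 7400 and 8901 bp. Both groups at 48 h lay above both at 0 h, so it was longer in each vector. At 48 h both SETD5-cell values were below both empty-vector values, and the cover was called shorter in SETD5 cells. The window was full in empty-vector cells. The islands themselves were 51400 and 17800 bp there at 48 h, against 7400 and 6400 bp in SETD5 cells. The H3K4me1 island at Adipor2 went from 1200 bp at 0 h to 11800 bp at 48 h. Neither SETD5-V5 list at 0 h nor either endogenous list had an island there. Limk1, a kinase of the actin cytoskeleton, had 1600 and 2400 bp at 0 h and 10000 bp in both libraries at 48 h in empty-vector cells, and 3400 and 5000 bp against 8299 and 9200 bp in SETD5 cells.

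Pparg was longer in empty-vector cells, at a later start (chr6, 115372084) under an island of 9400 bp. Its cover was 7600 and 5400 bp at 0 h and 10000 bp in both libraries at 48 h. In SETD5 cells it was 3400 and 6699 bp at 0 h and 8299 and 8000 bp at 48 h, so it was longer with time there too. Both of these 48 h values were below both empty-vector values, and the cover at 48 h was called shorter in SETD5 cells. The window was full in empty-vector cells at 48 h. SETD5-V5 was already at this start at 0 h, with islands of 3800 and 4800 bp, and endogenous SETD5 was there at 6 h (6400 bp) and not at 0 h. BC018473, a processed transcript, had cover of 1099 and 0 bp at 0 h and 10000 bp in both libraries at 48 h, and 0 and 0 bp against 10000 and 10000 bp in SETD5 cells. Pde10a and Adam23 went from 0 bp in all 4 libraries at 0 h to between 6000 and 7400 bp in all 4 at 48 h.

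Other gained promoters were Orm1, which encodes an acute-phase plasma protein, Gnb5, a G protein beta subunit, and the unnamed transcripts Gm9550 and Gm13939. Orm1 had 699 and 0 bp at 0 h and 7099 and 6699 bp at 48 h in empty-vector cells. Gnb5 had 0 bp in both at 0 h and 7099 and 5499 bp at 48 h, against 1800 and 2000 bp at 48 h in SETD5 cells. At both genes the 48 h libraries of the vectors did not overlap.

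Of the 2 members of the preadipocyte and mesenchymal list, Dlk1 was called shorter in empty-vector cells and Runx1 was not. Ogn, a proteoglycan of the extracellular matrix, had 10000 and 9199 bp at 0 h and 1400 and 2400 bp at 48 h in empty-vector cells. In SETD5 cells it kept 7399 and 5000 bp at 48 h after 8799 and 8599 bp at 0 h, which was shorter than at 0 h and longer than in empty-vector cells at 48 h. Dlk1 had 4301 and 3501 bp at 0 h and 701 and 1701 bp at 48 h in empty-vector cells, and 3301 and 2901 bp against 901 and 701 bp in SETD5 cells. Both vectors were therefore alike in direction at Dlk1, and at 48 h their libraries overlapped.

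Lmo7, a LIM domain protein, fell in both vectors, from 10000 and 7101 bp to 2200 and 1400 bp in empty-vector cells and from 9101 and 10000 bp to 2800 and 2400 bp in SETD5 cells. Fndc7 and Gtdc1 also shortened in both, Gtdc1 from 8301 and 4701 bp to 0 bp in empty-vector cells and from 7701 and 8501 bp to 1400 and 1800 bp in SETD5 cells. Stk4, a kinase of the Hippo pathway, was lost in empty-vector cells at the island itself, and its window held 7901 and 6901 bp at 0 h and 2000 and 0 bp at 48 h. Spink13 fell from 7200 and 7800 bp to 0 bp in both libraries.

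Some of the largest losses lay at unnamed transcripts and small RNAs. Gm5859 and Gm7819, gene models of the same stretch of chromosome 4, had 8800 and 5600 bp in every empty-vector library at 0 h and 0 bp at 48 h, and 8200 and 5600 bp against 0 bp in SETD5 cells. Reads there may be shared with similar gene models, which was not tested, so these values are uncertain. SNORD88 fell from 8201 and 8801 bp to 0 bp in empty-vector cells and from 8201 and 9801 bp to 2200 and 2400 bp in SETD5 cells. Tes3-ps, annotated as protein-coding and close to Ogn on chromosome 13, went from 6401 and 6001 bp to 2401 and 401 bp.

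The changes with time in empty-vector cells and in SETD5 cells use different libraries and can be set side by side. Of the 191 promoter islands longer in empty-vector cells 91 (47.6%) were also longer in SETD5 cells, which is 56.5% of the 161 longer there, and 1 was shorter. Elsewhere 62.2% of 3872 longer in empty-vector cells were longer in SETD5 cells. Of the 106 shorter in empty-vector cells 64 (60.4%) were shorter in SETD5 cells, 58.2% of 110, and 2 were longer, and elsewhere 58.0% of 3363 were shorter in both. The differences between promoter islands and islands elsewhere were not tested. Promoters called in 1 vector and not in the other are not thereby shown to differ.

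SETD5 cells were compared with empty-vector cells at each time. At 0 h 16 promoter islands had H3K27ac in SETD5 cells only (1.18%, against 2.71% of all reproducible islands) and 2 in empty-vector cells only (0.148%, against 0.837%), which were Fgl1 and Unc93b1. Cover was longer in SETD5 cells at 48 (3.55%, against 5.13%) and shorter at 18 (1.33%, against 3.86%). At 48 h 32 had H3K27ac in SETD5 cells only (2.37%, against 6.63%) and 2 in empty-vector cells only (0.148%, against 1.33%), which were Unc93b1 and SNORD116. Cover was longer at 79 (5.85%, against 11.7%) and shorter at 96 (7.11%, against 7.69%). Shorter cover in SETD5 cells at 48 h was the call whose share came closest to the background, and longer cover was below it.

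Which of these calls was the more frequent depended on the replicate. From replicate A alone 161 promoter islands were longer and 396 shorter in SETD5 cells at 48 h, and from replicate B alone 265 were longer and 216 shorter. The same counts over all reproducible islands were not taken. The whole H3K27ac lists at 48 h differed the same way, covering 121.5 Mb in empty-vector and 110.0 Mb in SETD5 cells in A. In B they covered 110.9 and 120.5 Mb. Mean cover in SETD5 cells at 48 h minus that in empty-vector cells was -403 bp within A and 104 bp within B, with group means of 3356 ± 150 bp and 3506 ± 209 bp (SD, n = 2) and an exact permutation p of 0.667. At 0 h the difference was also of opposite sign, -251 bp in A and 444 bp in B. Elsewhere these differences had the same signs, -135 and 292 bp at 48 h and -280 and 363 bp at 0 h. At the promoter islands mean cover at 48 h was 255 and 370 bp above that at 0 h within A and within B in empty-vector cells. In SETD5 cells it was 102 and 29.8 bp above (exact permutation p = 0.667 for each change with time). The means at 0 h were 3193 ± 290 bp in empty-vector and 3290 ± 201 bp in SETD5 cells.

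Among the 96 promoters with shorter H3K27ac in SETD5 cells at 48 h were 0 of 3 members of the adipocyte function list. Acsl1 and Slc25a10 were among the 4 with the largest gaps. Acsl1, which activates long-chain fatty acids by joining them to coenzyme A, had 7799 and 8199 bp in empty-vector cells and 3000 and 3600 bp in SETD5 cells. At 0 h it had 2800 and 1400 bp and 2000 and 1400 bp, so the vectors overlapped then. Slc25a10, the mitochondrial dicarboxylate carrier, had 8000 and 6699 bp against 2400 and 2000 bp at 48 h, after 4600 and 4400 bp and 4000 and 4200 bp at 0 h. It was thus longer with time in empty-vector cells and shorter with time in SETD5 cells.

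Dusp22, a dual-specificity phosphatase, had 7299 and 6899 bp in empty-vector cells and 2499 and 2099 bp in SETD5 cells at 48 h, and between 1600 and 2299 bp in all 4 libraries at 0 h. Ifrd1, a transcriptional coregulator, had 6901 and 7000 bp against 600 and 1200 bp at 48 h, and 0 bp in all 4 libraries at 0 h. SETD5-V5 had no island at Acsl1, Dusp22 or Ifrd1 at 0 h in either replicate. At 6 h it had islands there of 6400, 3800 and 4200 bp in replicate A, and endogenous SETD5 had no island at any of these starts at either time. Slc25a10, the other of the 4 with the largest gaps, had a SETD5-V5 island of 5600 bp at 0 h in replicate A and none in replicate B.

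Promoters with longer H3K27ac in SETD5 cells at 48 h were led by Snx21, a sorting nexin, with 9400 and 10000 bp against 3401 and 5001 bp in empty-vector cells. At 0 h its libraries had 2001 and 3201 bp in SETD5 cells and 2601 and 2401 bp in empty-vector cells. Vps13d, a lipid transfer protein, had 6200 and 6599 bp against 1600 and 2400 bp, and Ltbp1, which binds latent TGF-beta, 8400 and 7400 bp against 4000 and 1600 bp. Nup88, a nuclear pore protein, had 3600 and 3400 bp against 0 bp, after 2000 and 1600 bp in both vectors at 0 h.

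Pla1a, a phospholipase, had 2800 and 3000 bp in SETD5 cells at 48 h and 0 bp in all other libraries. Gm17376 had 3000 bp in both SETD5 libraries at 48 h and 0 bp in the others. Cbx7, a Polycomb protein, had 2400 and 2800 bp in SETD5 cells at 48 h and 0 bp in empty-vector cells, and 2600 to 4601 bp in all 4 libraries at 0 h. The loss with time was called in empty-vector cells and not in SETD5 cells, and whether the vectors changed differently was not tested.

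At 0 h, before induction, the vectors differed at few promoters. Mlh3, a mismatch repair gene, had 7001 and 6801 bp in SETD5 cells against 3000 and 3600 bp, and Zbtb38, a zinc finger protein, 3400 and 3000 bp against 0 bp in both empty-vector libraries. In the other direction Clec14a had 3000 and 3400 bp against 7299 and 5800 bp, C1qtnf1, a secreted protein of the adiponectin family, 6600 and 7000 bp against 9001 and 9599 bp, and Wfdc3 4601 and 4201 bp against 6601 and 6401 bp.

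**Figure D4:**
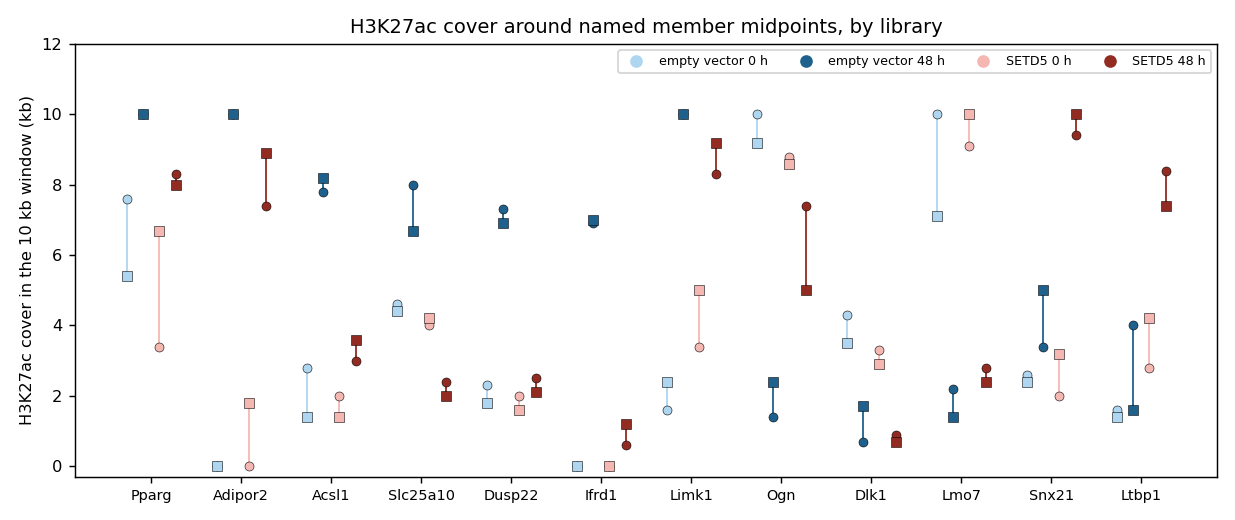
H3K27ac cover (y axis, kb) in the 10 kb window around the midpoint of 12 promoter islands (x axis, gene), circles for replicate A and squares for replicate B, joined by a line within a group; light blue and dark blue for empty-vector cells at 0 h and 48 h, light red and dark red for SETD5 cells at 0 h and 48 h. Dark blue lies above dark red, with no overlap between the libraries, at Pparg, Adipor2, Acsl1, Slc25a10, Dusp22, Ifrd1 and Limk1. It lies below, again with no overlap, at Ogn, Lmo7, Snx21 and Ltbp1.

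Among the other genes of the lists, most kept their H3K27ac. Angptl4 had 7000 bp or more in all 8 libraries, with SETD5-V5 at 0 h in both replicates. Klf4 had 3800 and 4400 bp in empty-vector cells and 6000 and 6600 bp in SETD5 cells at 48 h, and was called longer in SETD5 cells. Cry2, a repressor of the circadian clock, was longer with time in empty-vector cells (6201 and 4600 bp to 8401 and 8801 bp) and had 6801 and 6601 bp in SETD5 cells at 48 h. Of the ribosomal protein genes, Rps2 had 6299 and 6699 bp against 3499 and 4099 bp at 48 h and Rpl35 8499 bp in both libraries against 6800 and 7200 bp, both shorter in SETD5 cells, and Rpl22 was in neither of these calls. The window at a later start of Acaca had H3K27ac in SETD5 cells at 0 h alone (2101 and 1101 bp). Acly had 4800 and 1400 bp at 0 h and 5499 and 5400 bp at 48 h in empty-vector cells, so the gap between groups was below 1000 bp.

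The promoter island in Setd5 (chr6:113075001-113080200) lay over exons at a later start and had no H3K27ac in any of the 8 libraries. The retrovirus carries the Setd5 coding sequence, and exon islands were more frequent in the lists of SETD5 cells (above). Their part in this island was not tested. Ncor1 had 3000 to 4000 bp of H3K27ac in all 8 libraries, an island of 2200 bp at 6 h in replicate A, and no endogenous SETD5.

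H3K27ac was in all 8 lists at 1096 promoter islands (81.1%, against 42.4% elsewhere) and in none at 65 (4.81%, against 18.1%). Of those 65, Fam54a had the highest SETD5-V5 rank at 6 h, with an island of 7600 bp, and neither H3K4me1 nor SETD5 of either kind in any other list. It was followed by U6, Ighv1-67, Gm13141 and SNORD58, of which Ighv1-67 and Gm13141 had islands in both H3K4me1 lists and all SETD5 lists.

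The promoters themselves were intermediate in CpG content. Over 1000 bp upstream to 100 bp downstream of the start, the 1139 promoter islands at a protein-coding start had a median observed over expected CpG of 0.544, and 42.6% reached 0.6. For all 70059 protein-coding promoters the median was 0.383 with 29.0% at 0.6 or above, and for the 29807 with H3K27ac in both empty-vector lists at 0 h it was 0.629 with 55.2%. Promoter islands with H3K27ac in all 8 lists had a median of 0.591, those with none 0.244, those gained in empty-vector cells 0.216 (30 promoters) and those lost 0.231 (21 promoters). Longer cover in empty-vector cells went with 0.438 and shorter with 0.311. Shorter cover in SETD5 cells than in empty-vector cells at 48 h went with 0.471 (90 promoters) and longer with 0.394 (62 promoters). Promoters that changed presence were thus mostly poor in CpG, as promoters without H3K27ac were.

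**Figure D5:**
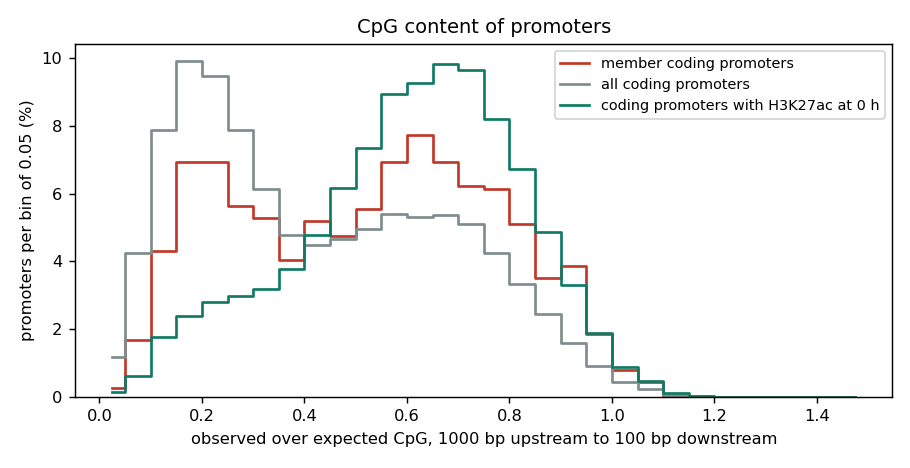
Distribution of observed over expected CpG (x axis, bins of 0.05) in protein-coding promoters (y axis, % of promoters in a bin) for promoter islands in red, all promoters in grey and promoters with H3K27ac at 0 h in green. The red curve has a low and a high mode, and its median of 0.544 lies between 0.383 (grey) and 0.629 (green).

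Among the motif letters, SP1 and ETS were more frequent and TATA less frequent than in all promoters, and the other 6 were within 2 percentage points. SP1 letters were in 62.8% of these promoters (52.7% of all protein-coding promoters of that length), ETS letters in 21.7% (16.9%) and TATA letters in 37.3% (42.3%). AP-1 letters were in 16.9% (15.5%), CRE letters in 3.69% (2.98%), C/EBP letters in 36% (34.7%), TEAD letters in 43.0% (43.7%), NFY letters in 75.1% (76.1%) and E-box letters in 18.1% (18.3%). No motif's letters are contained in those of another, although matches of different motifs can share bases. Promoters with H3K27ac at 0 h had SP1 and ETS letters more often still (77.8% and 28.8%), and the part of acetylation in the shares of the promoter islands was not tested.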

How the data were processed

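ChIP-seq libraries of 3T3-L1 cells were mapped to mm9 by the authors with ELAND or Bowtie2, and the deposited score column of each island list is the SICER score, made per library from 200 bp windows, with larger gaps allowed for SETD5 than for the histone marks. SICER2 is stated for H3K4me1, and the island numbers stated for that release match the replicate A lists of acetylation and of SETD5-V5 and the endogenous lists. For the replicate B lists the release is not given in the sources used here, so A and B may also differ in release. No reads were used. Overlaps, cover and sequence features were computed with Python 3.11.15, numpy 2.4.6, scipy 1.17.1 and pysam 0.24.0 against the mm9 genome and its GENCODE genes, and tested on simulated data. Overlap meant 1 bp or more. Cover was counted in 5000 bp on each side of the midpoint.

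Replicates A and B were given as means with SD and compared by two-sided exact permutation tests over libraries. Named genes were the highest-ranking regions by score at 6 h, overall and among those in all 6 SETD5 lists, the highest-scoring of each presence call, those with the largest gap of each cover call, the members of each gene list, and those at the edges of the rule. Regions, lists and rules were chosen with earlier results of these data known.

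Alternatives changed the overlap, window, score threshold, numbers of islands, promoter rule and replicates. Left out were islands of 20000 bp or more and any count model, since the lists hold no counts.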

Additional observations from a re-analysis of the deposited data

Results flagged for a closer look

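Among the promoters named above, H3K27ac cover at 6 moved in opposite directions with time in the 2 vectors, in every library pair of a vector. Only named promoters were searched, and many were named for their H3K27ac calls, so the 6 are no share of all promoter islands. By the 1000 bp rule, 1 of 191 promoter islands longer in empty-vector cells was shorter in SETD5 cells (0.524%, 0.749% elsewhere). Of 106 shorter in empty-vector cells, 2 were longer in SETD5 cells (1.89%, 1.37% elsewhere). The difference between the vectors was not tested. With time from 0 h to 48 h, as group means in the 10000 bp window, the SNORD116 copy named for its H3K27ac in empty-vector cells at 48 h differed by 3450.5 bp in empty-vector cells and by -2650.5 bp in SETD5 cells. Cry2, the clock repressor, differed by 3200.5 and -300 bp, Slc25a10, the dicarboxylate carrier, by 2849.5 and -1900 bp, and Mlh3, the mismatch repair gene, by 2500 and -900 bp. Cry2 was named from its gene list, and -300 bp is less than the median difference between replicates, 400 bp in both SETD5-cell groups. In the reverse direction Wfdc3 differed by -1900.5 and 2900 bp and Nup88, the nuclear pore protein, by -1800 and 1700 bp. SNORD116 is a multicopy gene, so its islands are uncertain.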

How the results depend on the processing

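Results below are given as the share of promoter islands (or differences in points), and the cause of a change was not tested. With at least 50% of the region covered, the shares were 9.03% for endogenous SETD5 at 6 h, 56.5% for empty-vector H3K27ac at 0 h and 26.2% for H3K4me1 at 0 h. The differences were then 4.44 (empty vector with time), -0.185 (SETD5 cells with time), 1.55 (SETD5 minus empty vector at 0 h) and -3.07 (at 48 h), the last and the second reversed. Within 500 bp of the midpoint the shares were 11.9%, 81.1% and 40.5% in the same order. With islands at or above the median score they were 7.55%, 72.1% and 39.8%, the differences 1.78, 3.40, 4.15 and 5.77. Applying that threshold to the SETD5-V5 islands instead would leave 580 regions. With equal numbers of islands the shares were 9.99% and 85.6%, the differences 1.85, 1.67, 0.740 and 0.555, and at 48 h 19 regions had H3K27ac in SETD5 cells only and 11 in empty-vector cells only. With 50% of the island of replicate A covered by replicate B, endogenous SETD5 was at 15.9%, H3K27ac at 87.1%, and the differences of SETD5 cells with time and between vectors at 0 h were 2.39 and 1.91. With protein-coding promoters only, H3K27ac was at 89.1% and those differences and the one at 48 h were 1.67, 1.67 and 2.19. With every island that overlaps a promoter there were 5330 regions, the shares were 16.5%, 85.0% and 68.6%, and the differences with time 1.74 and 2.79. In an alternative chosen after seeing the data, without the regions found in all 16 lists, H3K27ac was at 86.7%. In a window of 2500 bp on each side 124 were longer in empty-vector cells with time, 41 longer and 45 shorter in SETD5 cells at 48 h, and with 500 bp on each side 5 had H3K27ac in empty-vector cells only.

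From 1 replicate at a time, the differences ranged from 0.296 to 1.48, from 1.78 to 1.92, from 1.63 to 1.92 and from 2.22 to 3.26, and the counts in empty-vector cells from 56 to 67 gained, from 372 to 375 longer and from 189 to 253 shorter. At 48 h 47 to 54 had H3K27ac in SETD5 cells only and 10 to 17 in empty-vector cells only, and 161 to 265 were longer and 216 to 396 shorter in SETD5 cells. With the replicate letters as a replicate block the differences were 0.888, 1.85, 1.78 and 2.74, as without it, which the balanced design fixes. Across islands, the deviations of A from B were hardly correlated between groups (-0.0768 to 0.0778). A correlation takes out any offset common to all islands, so it cannot settle whether the letters pair the libraries. Mean cover at promoter islands was higher in A in empty-vector cells (3398 against 2989 bp at 0 h, 3653 against 3358 bp at 48 h). In SETD5 cells it was lower in A (3148 against 3432 bp and 3250 against 3462 bp). In promoters from 250 bp upstream to 50 bp downstream the motif shares were 4.04% (AP-1), 9.66% (C/EBP), 13.8% (TEAD), 34.7% (NFY), 49.8% (SP1), 13.6% (ETS), 8.17% (E-box) and 8.87% (TATA). In all, 63 values moved by less than the spread or kept their count within 1.5 times. Among them are the replicate block values, which the design fixes. For SETD5-V5 at 0 h (34.4%) the spread was the SD between replicates, 24.7 points. Shares from 17.0% to 51.8% therefore all counted as unmoved, and the rule cannot tell whether that share is stable. It was 23.6% with 50% of the region covered, 21.3% with islands at or above the median score and 40.9% with every island that overlaps a promoter. No reads were used, so depth per island is unknown, and the length and number of islands in a list set every overlap.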

Other observations

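Of the 1351 promoter islands, 212 had no protein-coding promoter, and 39 had a snoRNA or miRNA as the nearest start. Protein-coding promoters on both strands lay around 54 midpoints, and 21 genes were held by more than 1 island. At first starts of genes 82.8% had H3K27ac in all 8 lists and at later starts only 78.1%, and endogenous SETD5 at 6 h was at 14.0% and 13.3%. Among the 206 promoter islands with SETD5-V5 at 0 h in both replicates, 159 were protein-coding and 30.2% of these reached an observed over expected CpG of 0.6, against 42.2% of 535 with SETD5-V5 at 0 h in neither. ETS letters were in 12.6% and 24.7% of these promoters. Of the 2427 protein-coding starts in promoter islands, 7.29% had shorter and 4.61% longer cover in SETD5 cells than in empty-vector cells at 48 h, against 4.21% and 2.57% of all. These starts include many that share a promoter, so they are not independent.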
